A study of Mus musculus with 9 samples.

Results

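Immediate early genes are a set of 10 genes here, Fos, Fosb, Jun, Junb, Egr1, Egr2, Egr3, Arc, Npas4 and Nr4a1, chosen by gene symbol from the 55487 genes of the expression table. Each symbol matched 1 gene. The rule used no measured value, and the list was drawn up with earlier results of these data known. Levels were compared across 9 bulk RNA-seq libraries of whole mouse retina at postnatal day 21 (P21), 3 libraries for each of 3 genotypes. All animals were of the C57 BL/6J strain, and the retinas of a pair of animals were pooled for each library. Cre- animals, whose genotype the labels give as WT, lacked the Cre transgene. The tHet animals carried 1 floxed and 1 intact allele of each of Tet1, Tet2 and Tet3 together with a Cre-GFP transgene. In Tet tcKO animals both alleles of all 3 genes were floxed, with the same transgene. The transgene drives Cre in retinal progenitor cells and its expression is mosaic. The animals with the transgene were crossed among themselves to keep both of its copies, which lessens the mosaicism without showing that every retinal cell recombined. Cre- animals came from breeders that lacked it, and effects of genotype and of breeding line cannot be told apart where Cre- is compared. Mice were kept on a light and dark cycle, and the hour of dissection and the light at dissection are not given in the sources used here.

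Immediate early genes are transcribed within minutes of a stimulus such as calcium entry, light or a growth factor, with no need for new protein synthesis. Calcium and MAP kinase signalling reach them through transcription factors already bound at their promoters, among them CREB at cyclic AMP response elements and serum response factor at CArG boxes. Their products are transcription factors (the FOS and JUN proteins that pair as AP-1, the zinc finger EGR proteins, NPAS4 and NR4A1) and, for Arc, a synaptic protein. In the retina they are widely used as markers of recent activity of neurons and of the response of Müller glia to injury. TET enzymes oxidise 5-methylcytosine to 5-hydroxymethylcytosine, the first step of active DNA demethylation.

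The stretches upstream of the transcription start of Jun, Egr2, Fos and Nr4a1 are shown because Jun and Egr2 had higher levels in every Tet tcKO library than in every other library, while Fos and Nr4a1 did not. Each is the 250 bases before the start, 5′ to 3′ on the strand of the gene, from RefSeq on GRCm38.p6, with capitals marking every match to a searched motif on either strand. Jun is at chr4:95052223-95052472 on the minus strand, Egr2 at chr10:67535249-67535498 on the plus strand (1 of 5 entries for Egr2, that at the principal GENCODE start), Fos at chr12:85473640-85473889 on the plus strand and Nr4a1 at chr15:101266596-101266845 on the plus strand, before a start that lies inside the GENCODE gene.
Jun: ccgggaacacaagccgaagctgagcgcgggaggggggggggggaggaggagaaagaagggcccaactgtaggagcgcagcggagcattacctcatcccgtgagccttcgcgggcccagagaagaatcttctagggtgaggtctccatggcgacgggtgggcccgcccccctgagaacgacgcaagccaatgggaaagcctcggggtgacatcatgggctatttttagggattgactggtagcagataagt
Egr2: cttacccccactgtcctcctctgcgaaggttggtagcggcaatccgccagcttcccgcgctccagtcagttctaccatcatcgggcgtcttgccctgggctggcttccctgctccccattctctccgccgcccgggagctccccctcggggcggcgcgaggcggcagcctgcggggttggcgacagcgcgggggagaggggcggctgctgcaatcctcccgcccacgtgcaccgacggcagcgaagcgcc
Fos: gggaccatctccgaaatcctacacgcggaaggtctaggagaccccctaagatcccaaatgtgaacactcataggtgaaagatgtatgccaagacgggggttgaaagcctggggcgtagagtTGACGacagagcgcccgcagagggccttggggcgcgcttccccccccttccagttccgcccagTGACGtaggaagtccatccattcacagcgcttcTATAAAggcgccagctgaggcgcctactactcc
Nr4a1: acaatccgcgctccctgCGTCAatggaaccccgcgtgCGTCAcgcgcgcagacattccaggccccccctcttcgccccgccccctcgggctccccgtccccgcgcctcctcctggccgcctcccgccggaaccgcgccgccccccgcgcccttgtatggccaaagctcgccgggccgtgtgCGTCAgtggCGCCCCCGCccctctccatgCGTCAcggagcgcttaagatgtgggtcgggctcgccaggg

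The motifs searched were TGACGTCA and its short form TGACG, which are letters of the cyclic AMP response element, the CArG box, the EGR site as GCGGGGGCG or GCGTGGGCG, and the TATAAA of core promoters. The short form lies inside TGACGTCA, so a match to the long form would count for both. They were searched on both strands of 300-base windows, the 250 bases above plus the first 50 bases after the start. Of the 10 genes, 7 had a window. Egr1, Egr3 and Arc had none and were not searched, so the genes called against both controls are missing here. TGACG was present in 5 of these 7 (Fos, Fosb, Junb, Npas4 and Nr4a1) and in 20.8% of all 32851 promoters. Fos held it at 2 places, 129 and 66 bases before the start, and Nr4a1 at 4 places. GCGGGGGCG was present in Fosb and Nr4a1 and in 2.91% of all promoters. None of the 7 windows held TGACGTCA (1.79% of all promoters), GCGTGGGCG (0.612%) or a CArG box (1.63%). Fos had a TATAAA 33 bases before the start, as 13.6% of all promoters have one anywhere in the window, and the TATAAA of Junb began at base 1 after the start. The windows of Jun and Egr2 held none of the motifs, which says only that these letters are not within these windows. It cannot be extended to Egr1 and Egr3, which had no window. The upstream stretches of the 7 genes held 15 to 34 CpG dinucleotides, against a median of 6 over all promoters. TGACG, TGACGTCA and both EGR sites contain CpG, and the shares over all promoters were not matched for CpG content. The motif counts therefore cannot be read as an excess over promoters of like composition. DNA methylation was not analysed here.

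The reads counted on genes numbered 9627927 to 21108256 per library, so that 1 read stood for 0.0474 to 0.104 CPM, the deposited unit, in which reads are scaled to the same total in every library, and 3 reads, the smallest level taken as detected, for 0.142 to 0.312 CPM. These limits cover counting error only. Cell type markers were looked up, and no marker of the 13 lists was at 0 in every library. This held for the blood and pigment epithelium lists too, so it cannot verify the labelled tissue. Tet3 averaged 120 ± 28.2 CPM in Tet tcKO (SD, n = 3), against 235 ± 29.2 CPM in Cre- and 237 ± 71.5 CPM in tHet, a log2 fold change (log2FC) of -0.99 against Cre- (limma adjusted p = 0.0174). Tet1 and Tet2 reads over the whole gene were not lower in Tet tcKO, with log2FC of 0.22 and 0.25 against Cre-. Such reads do not measure the loss of an exon, and reads over the floxed exons were not analysed here. The authors report that the percentage of reads spliced into the floxed Tet exons fell from Cre- through tHet to Tet tcKO. The transcript CT010467.1, a ribosomal RNA, took 28.7% of the reads in Tet tcKO replicate 3 and 3.72% in tHet replicate 3, against at most 0.226% in the other libraries, which lowers the CPM of all other genes in those libraries. The p-values below measure the spread between these libraries.

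The 10 genes fell into abundant and scarce transcripts, and the order changed in Tet tcKO. Levels were compared between genes as CPM per kilobase of annotated exon. In Cre- retinas Jun was highest with 12.2 ± 1.36 CPM per kilobase (SD, n = 3), followed by Fos with 11.1 ± 3.83, Egr1 with 6.93 ± 2.77, Nr4a1 with 4.25 ± 1.60 and Junb with 3.03 ± 0.857. Each of these overlapped its neighbour in the order. The other 5 genes were lower, from 0.422 ± 0.109 CPM per kilobase for Arc to 0.0904 ± 0.0125 for Egr3, and every Junb library lay above every Arc library. In tHet the first 5 genes stood in the same order, again each overlapping its neighbour. In Tet tcKO retinas Egr1 led with 29.5 ± 1.75 CPM per kilobase and no library of it overlapped Jun, the next gene, with 21.8 ± 1.89. Jun in turn lay above Fos with 10.8 ± 1.14 in every library. Egr3 moved from the last place in both controls to the sixth place in Tet tcKO, with 2.66 ± 0.177 CPM per kilobase, where its libraries overlapped those of Nr4a1 with 2.81 ± 0.485. Summed over the 10 genes, the level was 94.5 to 156 CPM in Cre-, 74.2 to 128 CPM in tHet and 242 to 278 CPM in Tet tcKO. The 3 EGR genes made up 21.8% to 29.4% of that sum in Cre- and 15.4% to 39.7% in tHet, against 54.8% to 56.0% in Tet tcKO. Most of the EGR part was Egr1 in every library. In Tet tcKO Egr1 was at 123 to 137 CPM, Egr3 at most at 12.5 CPM and Egr2 at most at 2.83 CPM.

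Compared with Cre-, Tet tcKO retinas had higher transcript levels of the 3 EGR genes, and none of the 10 genes was called lower. Nr4a1 and Npas4 had log2FC below 0, of -0.51 and -0.16. A call needed a log2FC of 1 or more in size together with an adjusted p under 0.01 (limma on log2(CPM + 0.5), Benjamini-Hochberg adjustment over 21330 tested genes). Egr1, Egr2 and Egr3 were called higher, 3 of the 10, where 2.03% of all tested genes were called higher in this comparison. Over all tested genes 434 were called higher and 334 lower, and with CT010467.1 left out of the library totals 613 higher and 222 lower. Among the 10 genes the count of 3 fell to 1, Egr3, without Tet tcKO replicate 1 or without Tet tcKO replicate 3. The median log2FC of the 10 genes was 0.32, beside 0.00 over all tested genes. Against tHet, Egr1 and Egr3 were called higher, 2 of the 10, beside 1.39% of all tested genes, and the median log2FC was 0.77 beside -0.06. These comparisons share the Tet tcKO libraries. Called against both controls were Egr1 and Egr3, beside 1.20% of tested genes. Every Tet tcKO library lay above all 6 control libraries for Egr1, Egr2, Egr3 and Jun, 4 of the 10, beside 5.32% of all tested genes. Taking the controls singly, the same 4 genes lay above all Cre- libraries (10.0% of all tested genes), and these 4 with Junb and Arc, 6 of the 10, lay above all tHet libraries (7.35%). Between tHet and Cre- none of the 10 genes was called, beside 0.0422% of all tested genes. The unadjusted limma p was under 0.05 for Arc and Nr4a1, and for 970 of all 21330 tested genes. In that comparison edgeR's quasi-likelihood test and DESeq2 called none of the 10 genes either.

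**Figure D1:**
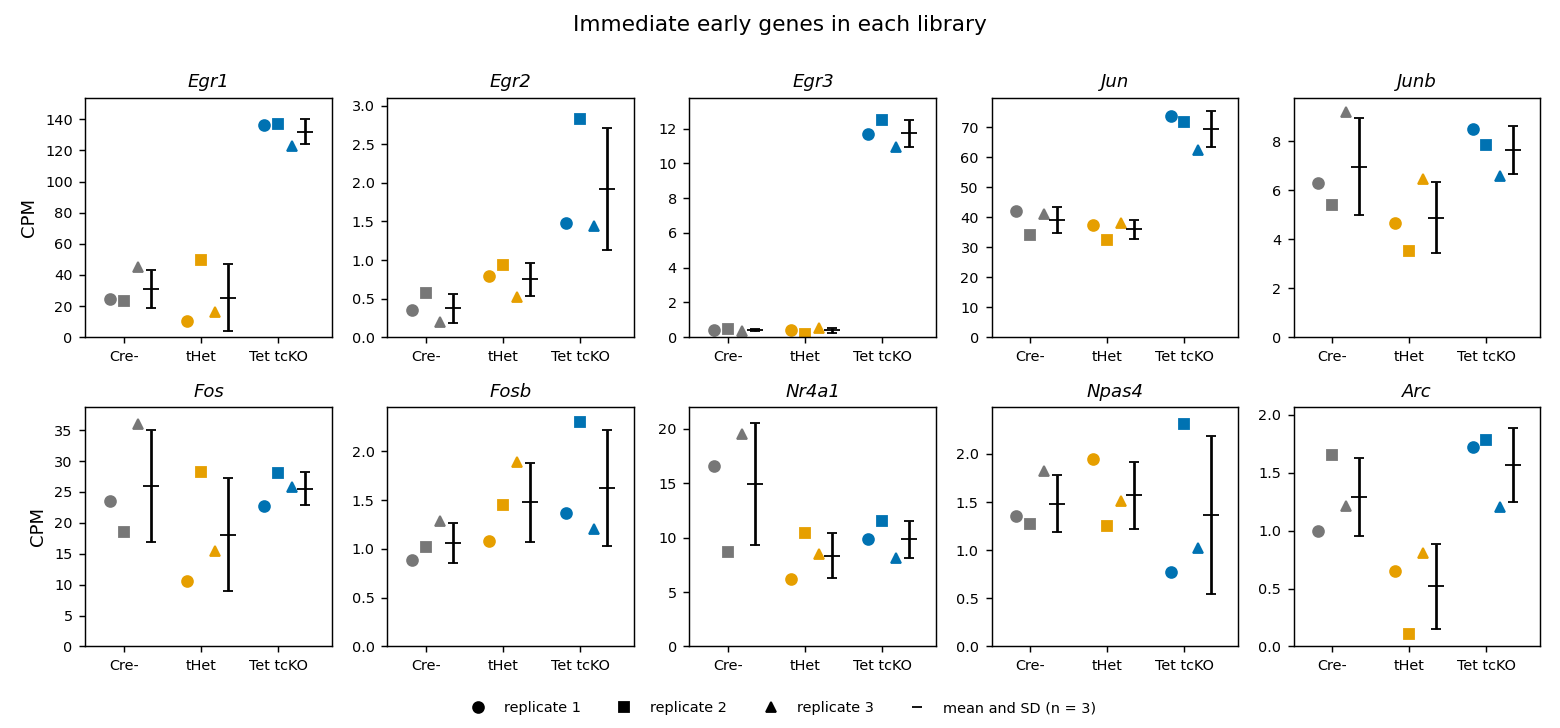
CPM of the 10 immediate early genes in each of the 9 libraries, 1 panel per gene with its own vertical axis starting at 0, marker shape giving the replicate number and colour the genotype. The bars beside the points are the mean and SD of 3 libraries. Egr1, Egr2, Egr3 and Jun have all 3 Tet tcKO libraries above the other 6, and in the other panels Tet tcKO overlaps at least 1 control genotype.

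Genes had to reach 0.5 CPM in at least 3 libraries to be tested, and all 10 did. Fos, Fosb, Jun, Junb, Egr1, Npas4 and Nr4a1 reached this level in all 9 libraries. Egr3 reached it in 4 libraries, all 3 of Tet tcKO and tHet replicate 3, so it was tested only because it was high in Tet tcKO, and its call cannot count as support. Without Egr3 the calls were 2 of 9 genes against Cre- and 1 of 9 against tHet, with median log2FC of 0.21 and 0.62. Its place in the counts of libraries that did not overlap cannot count as support either. Without it, every Tet tcKO library lay above all Cre- libraries for 3 of 9 genes (10.0% of all tested genes). Above all tHet libraries were 5 of 9 (7.35%). Above all 6 control libraries were Egr1, Egr2 and Jun, and called against both controls was Egr1 alone. In bulk tissue, fewer cells of a type and less RNA per cell cannot be told apart, and cell type markers moved with the genotype. The summed level of 5 rod markers was 2654 to 9398 CPM in Tet tcKO against 22486 to 32308 CPM in the 6 control libraries, and that of 5 cone markers was 886 to 1322 CPM against 312 to 419 CPM. Summed Müller glia markers were 1139 to 1366 CPM in Tet tcKO, below the 1377 to 1902 CPM of the controls, with 1 of 5 markers called higher and 2 called lower against each control. Summed pigment epithelium markers were 7.89 to 9.98 CPM against 11.0 to 38.0 CPM. Summed microglia markers were 26.6 to 54.3 CPM in Tet tcKO, above the 14.4 to 22.9 CPM of Cre- and overlapping the 21.6 to 33.6 CPM of tHet, with Cx3cr1 called higher against Cre-. Endothelial markers summed to 175 to 264 CPM in Tet tcKO, above the 111 to 138 CPM of tHet and touching the 138 to 175 CPM of Cre- at its upper end, with none called. Most of the endothelial sum was 1 gene, Kdr, at 198, 244 and 164 CPM in Tet tcKO. Pecam1 had log2FC of -0.31 against Cre- and -0.40 against tHet, and the other 4 endothelial markers had log2FC above 0 in both. Amacrine sums overlapped, at 354 to 703 CPM in Tet tcKO and 415 to 575 CPM in the controls, with Slc6a9 called lower against both. Ganglion cell sums were 534 to 792 CPM in Tet tcKO, overlapping the 780 to 1261 CPM of Cre- and below the 872 to 2069 CPM of tHet. Most of the ganglion cell sum was 1 gene, Nefl, with a log2FC of -1.08 against tHet. There Sncg had -1.56 and was called lower, while Rbpms, Pou4f1 and Pou4f2 had 0.18, -0.00 and 0.04. Of the bipolar markers, Cabp5 was called higher against both controls, and Trpm1 and Prkca were called lower against Cre-. The part of these changes in the results on immediate early genes was not tested.

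Egr1 encodes a zinc finger transcription factor that responds to growth factors and synaptic activity, and in the retina to visual input in amacrine cells. Its identifier was ENSMUSG00000038418.7, with 2 exon blocks on the plus strand and no annotated exon overlap with another gene. Egr1 was at 24.8, 23.0 and 45.4 CPM in Cre- replicates 1, 2 and 3, at 10.2, 49.8 and 16.4 CPM in tHet and at 136, 137 and 123 CPM in Tet tcKO. The lowest Tet tcKO library was above the highest control library, which was tHet replicate 2, and the spread was widest in tHet. Means were 31.1 ± 12.4, 25.5 ± 21.3 and 132 ± 7.84 CPM (SD, n = 3). The log2FC was 2.14 (SE 0.38, 95% interval 1.35 to 2.93) against Cre-, with a limma adjusted p of 0.00103. Against tHet it was 2.67 (SE 0.38, 1.87 to 3.46), with an adjusted p of 0.000141. Ordered by log2FC from the top, Egr1 stood at place 121 of 21330 against Cre- and 38 against tHet. Over 21 alternative settings the call against Cre- was kept in 17, with adjusted p from 5.44e-09 to 0.032. It was lost without Tet tcKO replicate 1 (log2FC 2.12, adjusted p = 0.0113), without Tet tcKO replicate 3 (2.19, 0.032), without both libraries richest in CT010467.1 (2.19, 0.0256) and with no filter on low values (2.14, 0.0117). Against tHet it was kept in 19 of 21, and lost without Tet tcKO replicate 3 (2.72, 0.0146) and without both of those libraries (2.56, 0.024).

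Egr3 encodes a related zinc finger factor with the same DNA recognition as Egr1 and, in neurons, a role in long-lasting responses. The gene (ENSMUSG00000033730.4) lies at 70077203 to 70082614 of chromosome 14 on the plus strand of GRCm38, with 4 exon blocks and no exon overlap. Egr3 was near the limit of detection in the controls, at 0.412, 0.445 and 0.338 CPM in Cre- and 0.432, 0.208 and 0.521 CPM in tHet. These values stand for 7, 7 and 5 reads and for 6, 2 and 11 reads. In Tet tcKO it was at 11.7, 12.5 and 11.0 CPM, or 197, 190 and 182 reads, so that each of the 3 libraries was far above each control. The ratio of means was 29.4 against Cre- and 30.3 against tHet. The log2FC on the log2(CPM + 0.5) scale, which understates the change of such a scarce transcript, was 3.77 (SE 0.31, 95% interval 3.11 to 4.42; limma adjusted p = 1.9e-07) against Cre- and 3.80 (SE 0.31, 3.14 to 4.46; 2.4e-07) against tHet. Egr3 stood at place 19 and at place 9 of 21330 by log2FC. The call was kept in all 21 alternatives in both comparisons, with log2FC from 3.18 to 4.88 against Cre- and from 3.20 to 4.84 against tHet. With no filter on low values, where its place among the tested genes does not depend on Tet tcKO, it was also called. In the main analysis and the other settings Egr3 was tested only because it was high in Tet tcKO. Its calls and places there cannot count as support.

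Egr2, known as Krox20 for its part in hindbrain segments and Schwann cell myelination, was scarce in all libraries. The gene is ENSMUSG00000037868.15, at 67535475 to 67542188 of chromosome 10 on the plus strand, with 5 exon blocks. Its levels were 0.353, 0.573 and 0.203 CPM in Cre-, then 0.792, 0.935 and 0.521 CPM in tHet, and 1.48, 2.83 and 1.45 CPM in Tet tcKO. All Tet tcKO libraries were above all controls, while tHet and Cre- overlapped. The lowest value, in Cre- replicate 3, was 3 reads. Means were 0.376 ± 0.186, 0.749 ± 0.210 and 1.92 ± 0.790 CPM (SD, n = 3). The log2FC against Cre- was 1.44 (SE 0.34, 95% interval 0.74 to 2.14), with a limma adjusted p of 0.00955, just under the threshold. Against tHet it was 0.92 (SE 0.34, 0.22 to 1.62), with an adjusted p of 0.128, and it was not called. The call against Cre- was kept in 11 of 21 alternatives, with adjusted p from 0.000906 to 0.0786. Leaving out a single library ended it for Cre- replicate 1 (log2FC 1.43, adjusted p = 0.0187), Cre- replicate 3 (1.29, 0.0786), tHet replicate 1 (1.44, 0.0142), Tet tcKO replicate 1 (1.56, 0.025), Tet tcKO replicate 2 (1.19, 0.0527) and Tet tcKO replicate 3 (1.58, 0.0234). The remaining EGR gene, Egr4, was not among the 10 and did not reach the level needed for testing, with 0 to 6 reads per library.

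**Figure D2:**
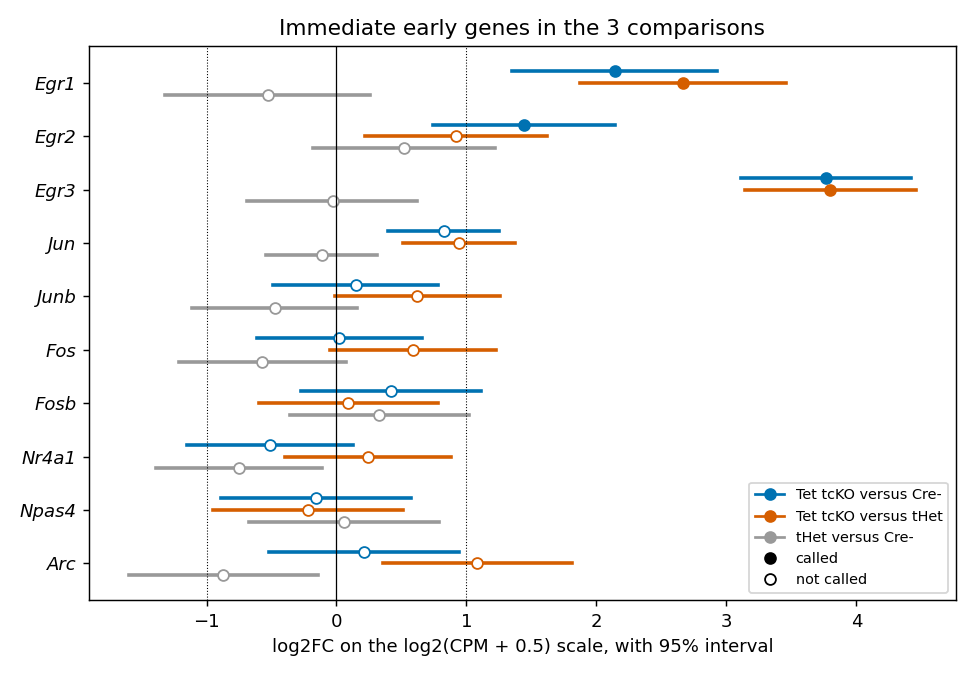
log2FC of the 10 immediate early genes on the log2(CPM + 0.5) scale in the 3 comparisons, with 95% intervals from the fit of all 9 libraries and dotted lines at -1 and 1. Filled points were called, which were Egr1, Egr2 and Egr3 against Cre- and Egr1 and Egr3 against tHet, and no point of tHet versus Cre- is filled.

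Jun, the partner of the FOS proteins in AP-1 and a target of the JNK kinases, had means in Tet tcKO that were 1.78 times those of Cre- and 1.93 times those of tHet. The gene is ENSMUSG00000052684.4, a single exon at 95049034 to 95052222 of chromosome 4 on the minus strand, and it overlaps exons of Junos on the opposite strand, from which it could not be told apart if strand was not used in counting. Jun was at 42.0, 34.0 and 41.0 CPM in Cre-, at 37.6, 32.3 and 37.9 CPM in tHet and at 73.8, 71.9 and 62.6 CPM in Tet tcKO. The replicates of each genotype were close together, and Tet tcKO lay above both controls in every library. Against Cre- the log2FC was 0.83 (SE 0.20, 95% interval 0.40 to 1.25; limma adjusted p = 0.0150), past neither threshold. Against tHet it was 0.94 (SE 0.20, 0.51 to 1.37; 0.00656), past the threshold on p and short of that on log2FC. Jun was called against Cre- in none of 21 alternatives, with log2FC from 0.73 to 0.99. Against tHet it was called in 5 of 21, with log2FC from 0.87 to 1.08 and adjusted p from 0.000122 to 0.0402. These were TMM scaling (1.01), edgeR's quasi-likelihood test (1.00), the totals without CT010467.1 (1.08), the fit without Tet tcKO replicate 3 (1.01) and that without both libraries richest in CT010467.1 (1.05).

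Junb, a JUN family member with weaker activating capacity than Jun, was at 6.30, 5.41 and 9.18 CPM in Cre-, at 4.68, 3.53 and 6.44 CPM in tHet and at 8.49, 7.84 and 6.56 CPM in Tet tcKO. Its highest library was a Cre- library, while all Tet tcKO libraries were above all tHet libraries. The gene, ENSMUSG00000052837.7, at 84974484 to 84978718 of chromosome 8 on the minus strand, shares exon sequence with Prdx2 on the opposite strand. The log2FC was 0.15 (95% interval -0.49 to 0.78; limma adjusted p = 0.926) against Cre- and 0.62 (-0.01 to 1.26; 0.298) against tHet. Every Jun to Junb ratio of CPM in Tet tcKO (8.69, 9.17 and 9.53) was above those of Cre- (6.66, 6.29 and 4.46), and the exact permutation test (two-sided) gave p = 0.1, its lowest possible value with 3 libraries against 3. The tHet ratios of 8.03, 9.15 and 5.89 overlapped those of Tet tcKO (exact permutation p = 0.2). These ratios, and those of Egr1 below, were chosen after the values were seen.

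Fos, the prototype of the class and the usual marker of recently active neurons, was not called in any comparison. The gene (ENSMUSG00000021250.13, at 85473890 to 85477273 of chromosome 12 on the plus strand, 4 exon blocks) was at 23.5, 18.5 and 36.0 CPM in Cre-, at 10.6, 28.3 and 15.5 CPM in tHet and at 22.7, 28.0 and 25.8 CPM in Tet tcKO. The highest library was Cre- replicate 3 and the lowest tHet replicate 1, and the Tet tcKO values lay inside the range of the controls. The log2FC was 0.02 (SE 0.31, 95% interval -0.61 to 0.66; limma adjusted p = 0.994) against Cre-, an interval that leaves out a doubling, and 0.59 (SE 0.31, -0.05 to 1.23; 0.334) against tHet. Its sign against Cre- changed with the scaling, to -0.03 with the upper-quartile factors. Fosb, a FOS family member whose products accumulate under repeated activity, was scarce at 0.883 to 1.28 CPM in Cre-, at 1.08 to 1.89 CPM in tHet and at 1.20 to 2.31 CPM in Tet tcKO. All 3 genotypes overlapped. Its log2FC was 0.42 (-0.27 to 1.11; adjusted p = 0.673) against Cre- and 0.09 (-0.60 to 0.78; 0.933) against tHet.

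Egr1 and Fos, which share upstream kinases, stood in the same order over the libraries of each control genotype. In Cre- both were highest in replicate 3 and lowest in replicate 2, and in tHet both were highest in replicate 2 and lowest in replicate 1. Nr4a1 had the same order in both controls. Over the 9 libraries, after centring each genotype on its own mean, log2(CPM + 0.5) of Egr1 and Fos had r = 0.95, Fos and Nr4a1 r = 0.80, and Egr1 and Nr4a1 r = 0.68, as descriptions of points that share library depth and composition. The 45 pairs among the 10 genes ranged from -0.81 (Egr1 and Egr3) to 0.95 (Egr1 and Fos) with a median of 0.27. Of these pairs 15 were below 0, among them Fos and Egr3 with -0.74 and Egr1 and Arc with -0.72. The ratio of Egr1 to Fos was 1.06, 1.24 and 1.26 in Cre-, 0.966, 1.76 and 1.06 in tHet and 6.01, 4.89 and 4.77 in Tet tcKO. The Tet tcKO ratios lay above all others, with log2 differences of 2.13 and 2.09 against Cre- and tHet (exact permutation p = 0.1 in each, two-sided, again the lowest possible). A ratio within a library does not depend on the library total, and so not on CT010467.1. The ratio of Egr1 to Nr4a1 was at most 2.65 in Cre- and 4.79 in tHet, and at least 11.9 in Tet tcKO.

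**Figure D3:**
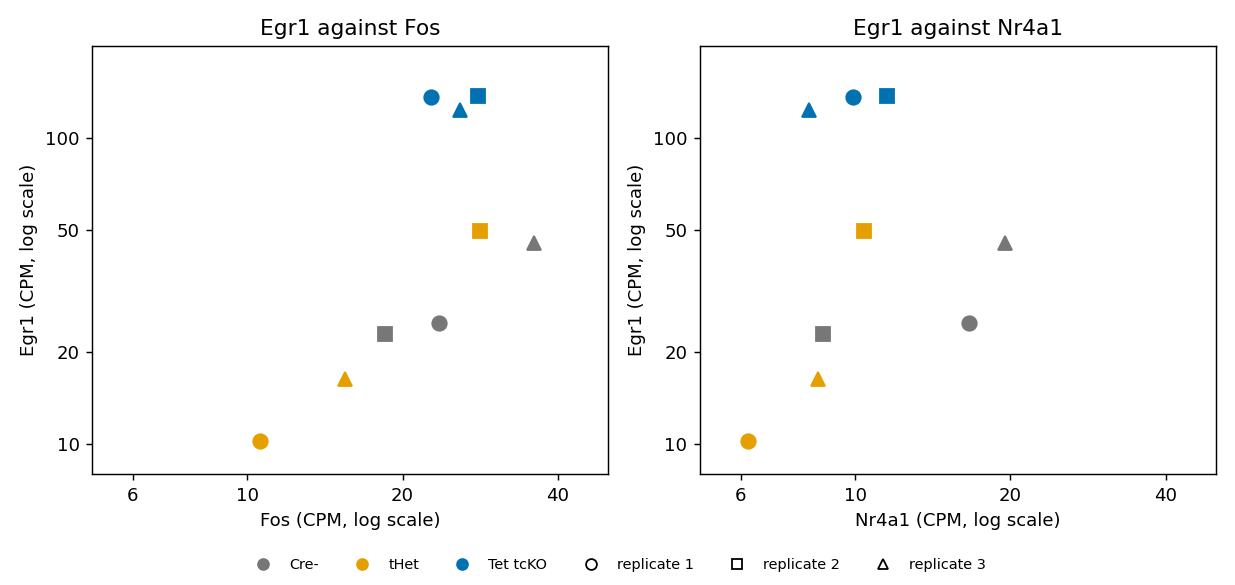
Egr1 against Fos (left) and against Nr4a1 (right) in each of the 9 libraries, both axes in CPM on a log scale, colour giving the genotype and marker shape the replicate number. The 3 Tet tcKO libraries sit at 123 to 137 CPM of Egr1, above the 6 control libraries, while their Fos and Nr4a1 levels fall within the range of the controls.

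Nr4a1 (Nur77), an orphan nuclear receptor induced by calcium, was at 16.6, 8.65 and 19.5 CPM in Cre-, at 6.19, 10.4 and 8.48 CPM in tHet and at 9.92, 11.5 and 8.13 CPM in Tet tcKO. Cre- replicates 1 and 3 were above all other libraries. The gene is ENSMUSG00000023034.7, at 101254269 to 101274795 of chromosome 15 on the plus strand. The log2FC in Tet tcKO was -0.51 (95% interval -1.15 to 0.13; limma adjusted p = 0.484) against Cre- and 0.24 (-0.40 to 0.88; 0.776) against tHet. In tHet versus Cre- it was -0.75 (unadjusted p = 0.0236, adjusted p = 1, limma). Npas4, a factor induced by calcium entry in neurons and by few other stimuli, was at 1.35, 1.27 and 1.82 CPM in Cre-, at 1.94, 1.25 and 1.52 CPM in tHet and at 0.772, 2.31 and 1.02 CPM in Tet tcKO. The highest and the lowest of the 9 values were both Tet tcKO libraries. The gene is ENSMUSG00000045903.9, at 4984355 to 4990316 of chromosome 19 on the minus strand. Its log2FC was -0.16 (-0.89 to 0.57; adjusted p = 0.932) against Cre- and -0.22 (-0.95 to 0.51; 0.831) against tHet.

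Arc, the synaptic protein that takes part in the removal of AMPA receptors, was lowest in tHet. Its levels were 1.00, 1.65 and 1.22 CPM in Cre-, then 0.648, 0.104 and 0.805 CPM in tHet, and 1.72, 1.78 and 1.20 CPM in Tet tcKO. All tHet libraries were below all libraries of both other genotypes, which overlapped each other, and tHet replicate 2 had 1 read. The gene (ENSMUSG00000022602.14) lies at 74669083 to 74672570 of chromosome 15 on the minus strand. The log2FC in tHet versus Cre- was -0.87 (95% interval -1.60 to -0.14; unadjusted p = 0.0215, adjusted p = 1, limma), and in Tet tcKO versus tHet it was 1.08 (0.36 to 1.81; adjusted p = 0.0774). Neither was called, and in none of 21 alternatives was either called. Tet tcKO against Cre- gave 0.21 (-0.52 to 0.94; adjusted p = 0.898). Arc was the 1 gene of the 10 with all tHet libraries below all Cre- libraries, beside 5.37% of all tested genes.

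The wider activity program was described with 70 further genes in 5 lists, of which 69 were in the table and 66 were tested. Against Cre-, 3 were called higher (Socs3, Penk and Ccn1) and 2 lower (Dusp4 and Sgk1), beside 3.60% of all tested genes called in either direction, and the median log2FC was 0.06. Against tHet, Socs3 and Nab1 were called higher and Dusp4 lower, beside 3.00% of all tested genes, and the median was 0.11. None was called in tHet versus Cre-, beside 0.0422% of all tested genes. Without single libraries the count against Cre- of 5 fell to 3 (Cre- replicate 2) or 2 (Tet tcKO replicate 1 or replicate 3), and that against tHet of 3 became 0 (tHet replicate 1 or Tet tcKO replicate 1), 5 (Cre- replicate 1) or 6 (tHet replicate 3).

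**Figure D4:**
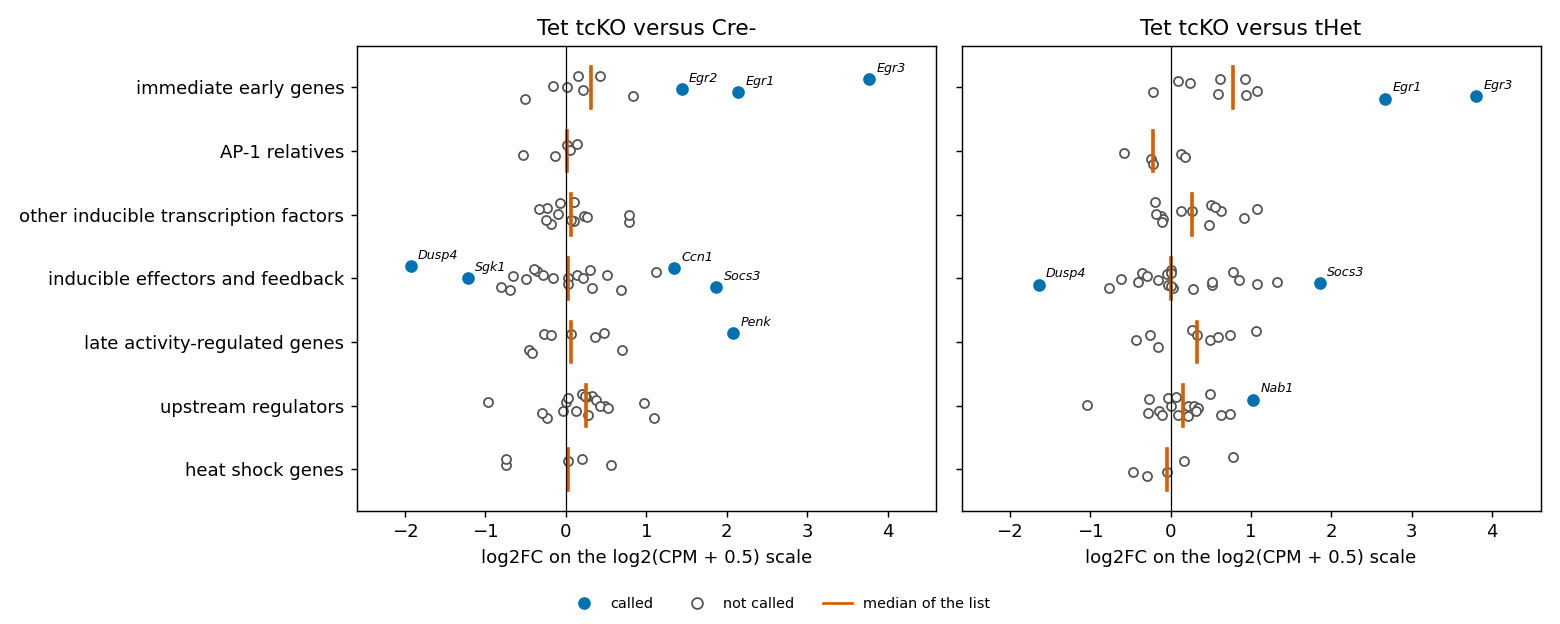
log2FC on the log2(CPM + 0.5) scale of every tested gene of 7 lists in Tet tcKO versus Cre- (left) and Tet tcKO versus tHet (right), with small vertical scatter to separate points. Filled points were called and are named, and the orange bars are list medians, which were 0.32 and 0.77 for the immediate early genes and between -0.22 and 0.33 for the other lists.

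Of 6 AP-1 relatives (Fosl1, Fosl2, Jund, Atf3, Jdp2 and Maff) 5 were tested and none was called, with a median log2FC of 0.01 against Cre- and -0.22 against tHet. Of all tested genes 3.60% were called against Cre- and 3.00% against tHet. At such shares a list this short may well hold no call. Atf3, a stress-induced partner of the JUN proteins, averaged 3.81 ± 1.14 CPM in the Cre- libraries and 2.46 ± 0.610 CPM in those of Tet tcKO (SD, n = 3), a log2FC of -0.53 (limma adjusted p = 0.492). Jdp2 and Maff had log2FC of 0.14 and -0.14. Of 14 other inducible transcription factors 13 were tested and none was called in any comparison. The shares of all tested genes were 3.60%, 3.00% and 0.0422% (tHet versus Cre-), so this too may be no departure from them. Ier5, a nuclear response factor, was at 29.3, 23.8 and 15.5 CPM in Tet tcKO, above all 6 control libraries, whose means were 12.7 ± 1.17 and 10.3 ± 1.10 CPM. Its log2FC was 0.78 against Cre- (adjusted p = 0.0866) and 1.07 against tHet (adjusted p = 0.0157), and without Tet tcKO replicate 3 it was called against tHet. Klf10 had a log2FC of 0.79 against Cre- (adjusted p = 0.179) and Per1, a clock gene that light also induces, -0.25 (0.746).

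Among inducible effectors and feedback genes, 4 of 21 tested were called against Cre-, beside 3.60% of all tested genes, and 2 of 21 against tHet, beside 3.00%. Socs3, the feedback inhibitor of cytokine signalling through STAT3, was at 1.53, 1.78 and 2.63 CPM in Cre-, at 1.08, 2.80 and 2.32 CPM in tHet and at 11.0, 9.03 and 5.90 CPM in Tet tcKO. All Tet tcKO libraries lay above the controls, and the log2FC was 1.87 (SE 0.36; limma adjusted p = 0.00197) against Cre- and 1.86 (SE 0.36; 0.00235) against tHet. Dusp4, a nuclear phosphatase that switches off MAP kinases, was at 38.6, 28.0 and 35.7 CPM in Cre-, at 26.9, 28.6 and 27.2 CPM in tHet and at 4.57, 17.5 and 7.41 CPM in Tet tcKO. It was lower in each Tet tcKO library than in any control, with a log2FC of -1.93 (SE 0.33; adjusted p = 0.000639) against Cre- and -1.64 (SE 0.33; 0.00323) against tHet. Sgk1, a kinase induced by glucocorticoids and growth factors, averaged 50.5 ± 14.4, 36.4 ± 6.09 and 21.5 ± 6.56 CPM in Cre-, tHet and Tet tcKO, with log2FC of -1.22 (adjusted p = 0.00429) and -0.77 (0.0879) against the controls. Ccn1, a secreted matrix-associated protein, averaged 2.81 ± 0.669, 2.88 ± 0.665 and 7.89 ± 1.26 CPM, with log2FC of 1.35 (adjusted p = 0.00893) and 1.32 (0.0122). Single libraries ended calls in each of these genes. Dusp4 was not called against Cre- without Tet tcKO replicate 3, nor Socs3 without Tet tcKO replicate 1, nor Sgk1 without Cre- replicate 2, Tet tcKO replicate 1 or Tet tcKO replicate 3. Ccn1 kept its call against Cre- in 9 of 21 alternatives, Sgk1 in 15, Dusp4 and Socs3 in 19. Against tHet, Dusp4 kept its call in 11 of 21 and lost it without tHet replicate 1, tHet replicate 2, Tet tcKO replicate 1 or Tet tcKO replicate 3. Socs3 kept its call against tHet in 16 of 21 and lost it without tHet replicate 1, Tet tcKO replicate 1 or Tet tcKO replicate 3.

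Late activity-regulated genes, which follow the immediate early wave, were called once in 9 tested against Cre-, beside 3.60% of all tested genes. None was called against tHet, beside 3.00%. There the unadjusted limma p was under 0.05 for 3 of the 9 and for 3732 of all 21330 tested genes. Penk, the precursor of the enkephalin peptides, was at 21.8, 17.8 and 24.4 CPM in Cre-, at 47.5, 20.4 and 84.5 CPM in tHet and at 102, 94.0 and 79.5 CPM in Tet tcKO. Its log2FC was 2.08 (SE 0.34; limma adjusted p = 0.000392) against Cre-, and 1.06 (SE 0.34; 0.0702) against tHet, whose replicate 3 overlapped Tet tcKO. Penk kept its call against Cre- in 20 of 21 alternatives and lost it without Tet tcKO replicate 3, and without tHet replicate 3 it was called against tHet. Its exons overlap A830012C17Rik on the opposite strand. Inhba, the subunit of activin, averaged 9.70 ± 1.57, 9.38 ± 1.27 and 16.2 ± 3.94 CPM, with a log2FC of 0.70 (adjusted p = 0.152) against Cre-. Vgf, a neuropeptide precursor, had a log2FC of -0.46 (0.449).

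Of 18 tested upstream regulators none was called against Cre- by limma, beside 3.60% of all tested genes. Nab1 was called against tHet, beside 3.00% of all tested genes. Against Cre-, 5 of the 18 had an unadjusted limma p under 0.05, as had 3427 of all 21330 tested genes. The list of 19 symbols held an older symbol of Mrtfa, Mkl1, which is not in the table. Nab1 and Nab2 encode corepressors that bind EGR proteins. Nab1 was at 96.5, 83.4 and 87.6 CPM in Cre-, at 73.7, 98.5 and 85.8 CPM in tHet and at 211, 195 and 129 CPM in Tet tcKO. All Tet tcKO libraries were above all controls, with a log2FC of 0.97 (SE 0.22; limma adjusted p = 0.00877) against Cre-, short of the threshold on log2FC, and 1.03 (SE 0.22; 0.00641) against tHet. The call against tHet was lost without Cre- replicate 3, tHet replicate 1, Tet tcKO replicate 1 or Tet tcKO replicate 2, and that against Cre- appeared without Tet tcKO replicate 3. Nab2 was at 4.06, 3.18 and 4.12 CPM in Cre-, at 4.54, 5.19 and 5.26 CPM in tHet and at 11.4, 7.78 and 7.29 CPM in Tet tcKO. It too was above all controls in Tet tcKO, with a log2FC of 1.10 (SE 0.29; adjusted p = 0.0246) against Cre- and 0.74 (SE 0.29; 0.169) against tHet, and it overlaps exons of Stat6, Nemp1 and Gm16229 on the opposite strand. Mef2c, a calcium-responsive transcription factor of neurons, averaged 216 ± 45.4, 227 ± 43.7 and 112 ± 32.1 CPM and lay below all controls in Tet tcKO, with log2FC of -0.97 (adjusted p = 0.0187) and -1.04 (0.0123). Heat shock genes, which respond to cell stress, had 5 tested and none called, beside 3.60% and 3.00% of all tested genes against Cre- and tHet. Their median log2FC was 0.03 against Cre- and -0.04 against tHet. Hspa1a averaged 12.5 ± 1.63 CPM in the Cre- libraries and 7.25 ± 1.28 CPM in those of Tet tcKO, below every control library, a log2FC of -0.75 (adjusted p = 0.119). Hspa1b had -0.74 (0.161), and the reads of these near-identical genes may be split between them, while Hspb1 had 0.56 (0.490).

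Genes whose pattern over the 9 libraries was most like the mean z-score of the 10 immediate early genes were looked up. Among 17419 other tested genes with a mean of at least 1 CPM, the 10 with the highest Pearson correlation had r from 0.905 to 0.971 over 9 libraries, which share depth and composition. They were Slc17a8 (0.971), Etv5 (0.942), Plpp3 (0.928), Stard8 (0.925), Tmem102 (0.913), Lhx2 (0.912), Kiss1r (0.911), Arid5b (0.909), Bcorl1 (0.906) and Gm42902 (0.905). Slc17a8, a vesicular glutamate transporter found in a class of amacrine cells, averaged 29.9, 26.5 and 42.0 CPM in Cre-, tHet and Tet tcKO, with a log2FC of 0.47 (limma adjusted p = 0.305) against Cre-. Etv5, a transcription factor downstream of fibroblast growth factor signalling, had 0.21 (0.823), and Lhx2, a factor of retinal progenitors and Müller glia, 0.51 (0.332). The mean z-score was highest in Tet tcKO replicate 2 (1.19) and lowest in tHet replicate 1 (-0.76), and that of Cre- replicate 3 (0.29) was close to that of Tet tcKO replicate 3 (0.30). None of these 10 genes was called against Cre-, beside 3.60% of all tested genes. Against tHet their lowest limma adjusted p was 0.0516 (Gm42902), so none was called there either, beside 3.00%. At such shares 10 genes may well hold no call.

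**Figure D5:**
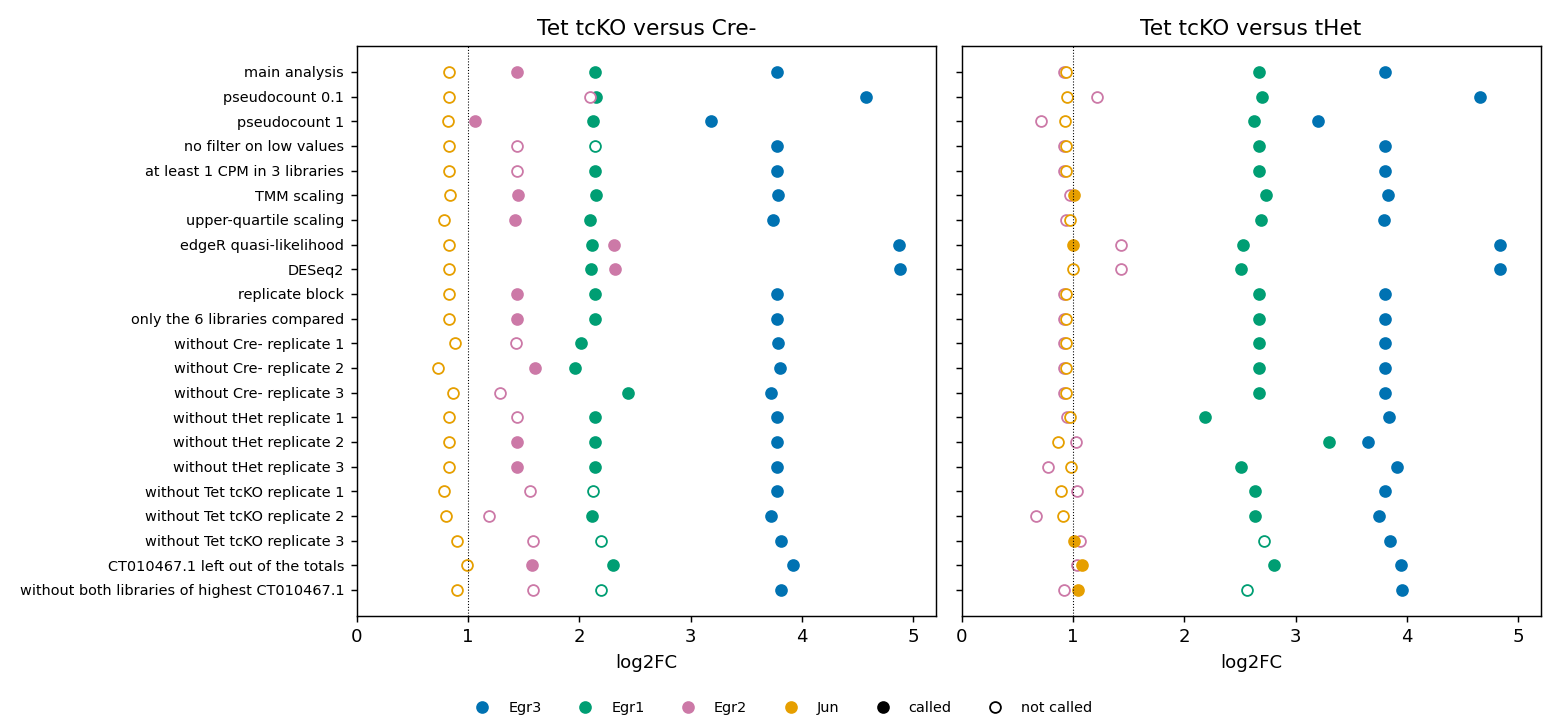
log2FC of Egr3, Egr1, Egr2 and Jun in the main analysis and under each of 21 alternative settings (rows), for Tet tcKO versus Cre- (left) and Tet tcKO versus tHet (right), with filled points called and a dotted line at 1. Egr3 is filled throughout and Egr1 in 17 and 19 of the alternatives, while Egr2 is filled in 11 on the left and in none on the right.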

How the data were processed

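Bulk RNA-seq libraries of P21 retina from Cre-, tHet and Tet tcKO mice were grouped by the sample labels, 3 per genotype. The authors removed ribosomal RNA, prepared stranded libraries, trimmed reads with Trim Galore 0.6.7, aligned them to mm10 with STAR 2.7.0f and counted them on genes with HTSeq 0.11.2 (versions from the submitters' processing notes). The annotation release and the strand setting of the counting are not given in the sources used here. The authors deposited CPM values for 55487 genes without a scaling factor, so every value was a whole multiple of 1 read (100% of values, tolerance 0.01 reads) and reads were recovered. Deposited columns of the authors' own comparisons (log2FC, mean level, p-values, false discovery rates) were not used.

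Genes that reached 0.5 CPM in 3 or more of the 9 libraries were transformed to log2(CPM + 0.5) and tested in R 4.3.3 by limma 3.58.1 (trend, 1 mean per genotype, all libraries in 1 fit, two-sided, Benjamini-Hochberg adjustment over all tested genes). A call needed a log2FC of 1 or more in size with an adjusted p under 0.01, the study's thresholds. A count test was not the main one since the deposited values are CPM. Alternatives were other pseudocounts, filters and scalings, edgeR 4.0.16 and DESeq2 1.42.0 on recovered reads, a replicate block, only the 6 libraries compared, and each library left out. The totals without CT010467.1, and the fit without both libraries richest in it, were chosen after seeing the data. Single ratios were compared with exact permutation tests. The fits were tested on simulated data first.

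All 10 members are reported. From the other lists, genes called in any comparison and up to 3 per list with the lowest unadjusted p in Tet tcKO versus Cre- are named. The members and lists were chosen with earlier results of these data known. Positions and exons came from GENCODE release 21 on GRCm38, matched by gene identifier without version for 55141 genes, and promoters from RefSeq on GRCm38.p6, found for 7 of the 10. Python 3.11.15 and matplotlib 3.10.9 made the figures. Protein sequences, DNA methylation and single-nucleus data were not used here.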

Additional observations from a re-analysis of the deposited data

How the results depend on the processing

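Leaving out 1 library at a time moved the number of immediate early genes called against Cre- between 1 and 3 (1 without Tet tcKO replicate 1 or Tet tcKO replicate 3) and left 2 against tHet and 0 in tHet versus Cre-. The 2 against tHet were not always Egr1 and Egr3. Without Tet tcKO replicate 3 they were Egr3 and Jun, as Egr1 lost its call and Jun gained a call. The median log2FC of the immediate early genes ranged from 0.17 to 0.45, from 0.63 to 0.87 and from -0.42 to -0.11 in these 3 comparisons. Other activity genes called ranged from 2 to 5, from 0 to 6 and stayed at 0, and all tested genes called from 360 to 976, from 287 to 959 and from 0 to 17. The counts of all tested genes that moved most were 422, 360 and 430 against Cre- (without Cre- replicate 3, Tet tcKO replicate 1 and Tet tcKO replicate 3), 339, 287 and 373 against tHet (without tHet replicate 1, Tet tcKO replicate 1 and Tet tcKO replicate 3), and 4, 17, 5 and 0 in tHet versus Cre- (without Cre- replicate 3, tHet replicate 3, Tet tcKO replicate 1 and Tet tcKO replicate 3). With no filter on low values, 1 immediate early gene (Egr3), 2 other activity genes and 417 tested genes were called against Cre-, 0 other activity genes and 351 tested genes against tHet, and 1 gene in tHet versus Cre-. Without both libraries richest in CT010467.1, 1 immediate early gene (Egr3) and 3 other activity genes were called against Cre-, with 426 tested genes against tHet and 0 in tHet versus Cre-. Leaving CT010467.1 out of the totals moved the median log2FC of all tested genes against Cre- from 0.00 to 0.14. Relative to the median of all tested genes under each setting, Jun against Cre- was at 0.83 before and 0.84 after, and Egr1 at 2.14 and 2.16. Against tHet, where Jun gained a call with these totals, Jun was at 1.00 before and 1.01 after on this relative scale. Its log2FC there went from 0.94 to 1.08 as the median of all tested genes went from -0.06 to 0.07. An adjusted p under 0.05 gave 1156 and 1104 genes against Cre- and tHet, 20 in tHet versus Cre- and 6 other activity genes against tHet. Against tHet, DESeq2 called 6 other activity genes and 1046 tested genes, and the fit of only the 6 libraries compared 6 and 1013. In tHet versus Cre-, 40 genes were called by DESeq2 and 1 each with TMM scaling, upper-quartile scaling, edgeR, the 6 libraries compared or the totals without CT010467.1, against 9 in the main analysis.

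The replicate block gave 3 and 2 immediate early genes against Cre- and tHet, as without it, 7 other activity genes and 1125 tested genes against tHet, and 40 in tHet versus Cre-. It changed no other count by over 1.5 times. Libraries with the same number share only the number. Their deviations from the genotype means had r from -0.35 to 0.56 (9 pairs, mean 0.111), against a mean of -0.0515 over 18 other pairs.

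Log2FC near 0 changed sign in genes that were not called. For Fos against Cre- these were -0.03 (upper-quartile scaling), -0.01 (edgeR) and -0.02 (DESeq2), and -0.19 to 0.28 over all alternatives. For Egr3 in tHet versus Cre- they were 0.03 (edgeR) and 0.04 (DESeq2). Over the fits that left out 1 library, log2FC ranged across 0 for Fos (down to -0.19), Junb (-0.00 to 0.35) and Npas4 (-0.50 to 0.07) against Cre-, for Fosb (-0.13 to 0.24) and Npas4 (-0.56 to 0.01) against tHet, and for Egr3 (-0.14 to 0.12) and Npas4 (-0.07 to 0.18) in tHet versus Cre-. The cause of these changes was not tested. Depth limits the values of genes with few reads per library, among them Egr3 in the controls, Egr2, Arc, Npas4 and Fosb.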
